A study of Mus musculus with 6 samples.

Results

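The calcitonin receptor gene Calcr was examined in the cisplatin-injured mouse kidney together with 9 genes of the calcium and vitamin D axis, namely Pth1r, Casr, Vdr, Cyp24a1, Cyp27b1, Kl, Trpv5, S100g and Calb1. These 10 genes were found by gene name among the 54532 genes of the deposited tables, and all 10 were among the 15816 genes tested. Calcr was chosen because its read counts were strongly raised in Trpm2-/- kidneys in this very comparison, so its values are given as a description without a test. The other 9 genes were chosen for their role in calcium and vitamin D handling, but with earlier results of these data known. Every one of the 10 genes had at least 25 reads in each library, so none entered the test through one genotype alone.

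Kidneys of 3 WT mice and 3 Trpm2-/- mice were profiled by RNA-sequencing. The Trpm2-/- animals carry the genotype label TRPM2-KO, and both groups are labelled as C57BL/6J mice of 6 to 8 weeks. The methods give males of an older age range and say that the WT mice were bought while the knockout line came from another laboratory, so genotype and colony cannot be told apart. TRPM2 is a calcium-permeable cation channel, and according to the methods the allele lacks a pair of internal exons in every cell and makes a protein that forms no functional channel. Every mouse, WT included, had received a single intraperitoneal dose of 18 mg/kg cisplatin, an antitumor drug that injures the renal tubule, and kidneys were collected 72 h later. No uninjected sample is part of these data, so each comparison is between genotypes after cisplatin. In the labels, WT mice carry the numbers 1, 2 and 3 and Trpm2-/- mice the numbers 1, 2 and 4, which are used here to name single mice.

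As background, the kidney sets the calcium level of the body under the control of parathyroid hormone, calcitonin and vitamin D. Parathyroid hormone and calcitonin act on receptors of the same family that couple to cAMP. The proximal tubule makes active vitamin D (calcitriol), and the distal tubule takes back calcium through the channel TRPV5, intracellular calbindins and pumps on the blood side. FGF23, a hormone from bone that needs the co-receptor Klotho, opposes the production of calcitriol and lowers phosphate uptake.

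The region just upstream of the start site is shown for Calcr, the gene with the widest difference here, and for Pth1r, the receptor of the same family that differed in the other direction. The sequences come from the RefSeq promoter table on GRCm38.p6, which held 11 start regions for 8 of the 10 genes. All 3 regions are on the minus strand and are written 5′ to 3′ towards the start site, and bases that GENCODE places in an exon were left out at the 3′ end (1 base for the first Calcr region, 7 bases for the second and 0 for Pth1r). Capitals mark matches, on either strand, to the cAMP response half-site TGACG, the GC box GGGCGG or the nuclear receptor half-site GGTTCA.
Calcr, chr6:3764715-3764963: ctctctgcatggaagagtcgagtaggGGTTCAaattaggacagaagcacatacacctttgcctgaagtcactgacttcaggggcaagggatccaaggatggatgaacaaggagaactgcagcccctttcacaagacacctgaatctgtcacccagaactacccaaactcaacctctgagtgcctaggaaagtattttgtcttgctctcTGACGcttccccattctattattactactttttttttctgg
Calcr, chr6:3763631-3763873: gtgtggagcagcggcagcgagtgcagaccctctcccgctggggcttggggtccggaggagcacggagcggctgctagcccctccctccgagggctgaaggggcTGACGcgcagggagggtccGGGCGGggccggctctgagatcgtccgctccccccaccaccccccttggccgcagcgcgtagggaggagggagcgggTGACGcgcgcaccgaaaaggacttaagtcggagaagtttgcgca
Pth1r, chr9:110747146-110747395: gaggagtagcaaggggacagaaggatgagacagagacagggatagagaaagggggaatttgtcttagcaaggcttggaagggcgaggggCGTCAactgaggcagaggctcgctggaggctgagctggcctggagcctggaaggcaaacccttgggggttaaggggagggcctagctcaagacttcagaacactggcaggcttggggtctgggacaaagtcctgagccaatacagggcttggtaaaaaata

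Counted back from the start site, the first Calcr region held GGTTCA at -224 and TGACG at -42, and 46.0% of its bases were G or C. The second Calcr region lay nearer to the coding part of the gene. It was 70.8% G or C with 24 CpG dinucleotides, and it held TGACG at -147 and -51 and GGGCGG at -128. The Pth1r region printed, the farthest upstream of its 3 start regions, held a single match, TGACG at -161 on the other strand. The Pth1r start regions not printed were 70.4% and 65.6% G or C with 22 and 16 CpG dinucleotides, and held GGGCGG at 4 places and 1 place. TGACG was found in the 250 bases upstream of 17.8% of the 32851 start sites in the table, GGGCGG in 32.7% and GGTTCA in 8.85%. All of these matches are therefore common upstream of mouse genes. The counts are per gene and do not tell from which start site a transcript came. The vitamin D receptor binds a pair of nuclear receptor half-sites in direct repeat 3 bases apart. This arrangement was found upstream of 0.0396% of start sites and in 0 of the 11 regions of these genes. It is so rare that 0 of 11 says little, and Cyp24a1 and Calb1, which had no region in the promoter table, are not covered. The half-site forms searched were AGGTCA and the form AGTTCA, and further the form GGGTCA and the form GGTTCA, in any combination and on either strand. Matches are a description of the letters and are no evidence of binding.

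Total counts on genes were between 14053307 and 17150089, and a count of 3 corresponded to 0.175 to 0.213 CPM (counts scaled to library size by TMM). This floor covers counting error only. The share of counts from the mitochondrial genome was 4.43 to 4.72% in WT libraries and 7.91 to 11.0% in Trpm2-/- libraries. Trpm2-/- mouse 4 stood apart from the rest, with podocyte markers summing to 509.8 CPM against 130.4 to 173.3 CPM in the other 5 libraries and endothelial markers to 183.4 CPM against 51.8 to 111.0 CPM. In WT mouse 1, urothelial markers summed to 49.2 CPM, against 6.37 to 12.0 CPM in the other libraries. Trpm2 itself had 5, 5 and 27 reads in WT mice and 10, 16 and 20 reads in Trpm2-/- mice (log2 fold change 0.36, SE 0.675, adjusted p = 0.776 by edgeR's quasi-likelihood test). A count over the whole gene includes exons that remain in the allele, so it does not check the genotype labels.

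Of the 9 genes chosen by role, 2 passed an adjusted p of 0.05, as did 12.0% of all genes tested. Pth1r was lower in Trpm2-/- kidneys, as were 7.28% of all genes tested, and Cyp24a1 was higher, as were 4.74%. The remaining 7 of the 9 did not pass. By the rule of an absolute log2 fold change above 1 with an unadjusted p under 0.05, as in the methods, 1 of the 9 was called (Pth1r), against 7.60% of all genes tested (3.50% higher and 4.10% lower). The values of the Trpm2-/- mice did not overlap with those of the WT mice for Pth1r and Cyp24a1, and 33.5% of all genes tested showed no overlap either (16.7% with Trpm2-/- above and 16.8% with Trpm2-/- below WT). In whole kidney RNA, fewer cells of a type and less RNA per cell cannot be told apart, and this holds for each level below.

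**Figure D1:**
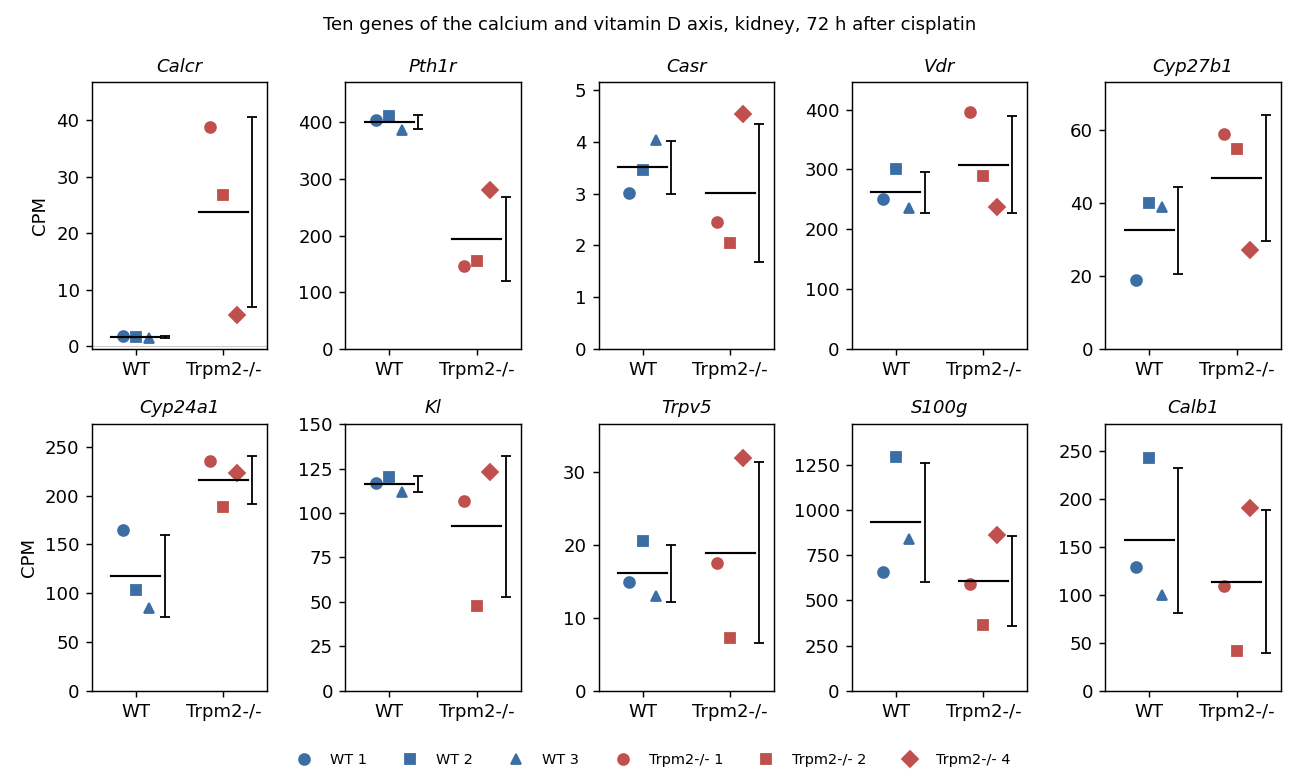
Levels of the 10 genes in each mouse, in CPM on linear axes, with WT libraries in blue and Trpm2-/- libraries in red and one marker shape for each replicate number. The horizontal line is the mean of 3 mice and the bar beside it is the SD. Trpm2-/- mice lie above WT mice for Calcr and Cyp24a1 and below them for Pth1r, and in the other 7 panels the genotypes overlap.

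Calcr encodes the calcitonin receptor, which is best known from osteoclasts, where calcitonin stops bone resorption, and is also present in the thick ascending limb and the cortical collecting duct. It lies on chromosome 6 of GRCm38 from 3685680 to 3764714 on the minus strand. Calcr had 30, 26 and 25 reads in WT mice 1, 2 and 3, and 633, 392 and 90 reads in Trpm2-/- mice 1, 2 and 4. This corresponded to 1.85, 1.67 and 1.53 CPM in WT mice and to 38.7, 26.8 and 5.60 CPM in Trpm2-/- mice. All 3 Trpm2-/- values were above all 3 WT values, and the WT values were close together while the Trpm2-/- values were spread widely. The highest Trpm2-/- value was 6.91-fold the lowest, against 1.21-fold among WT mice. The mean was 1.68 ± 0.159 CPM (SD, n = 3) in WT mice and 23.7 ± 16.8 CPM (SD, n = 3) in Trpm2-/- mice, a fitted difference of 3.81 on the log2 scale (14.0-fold). Without Trpm2-/- mouse 4 the fitted difference was 4.29 on the log2 scale, and without Trpm2-/- mouse 1 it was 3.25. None of the 75-base windows of its transcripts was found in another gene, and no exon of another gene overlapped its exons.

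Since Calcr marks osteoclasts, the other markers of that cell type were examined. Of 5 osteoclast markers, Dcstamp, which is needed for osteoclast fusion, had 0 reads in all 6 libraries, and Oscar and Ocstamp were too low to be tested. Acp5, the tartrate-resistant acid phosphatase, was lower in Trpm2-/- mice, with 56.8 CPM in WT and 24.0 CPM in Trpm2-/- mice (log2 fold change -1.24, adjusted p = 0.00150 by edgeR). Ctsk, the protease cathepsin K, was at 2.07 CPM in WT and 1.92 CPM in Trpm2-/- mice and did not pass the test (log2 fold change -0.11, adjusted p = 0.907 by edgeR). The summed level of the 5 markers, 55.9 to 63.2 CPM in WT mice and 24.8 to 28.6 CPM in Trpm2-/- mice, was almost all Acp5. Markers of the thick ascending limb, where calcitonin acts, summed to 735.6 to 2241 CPM in WT mice and 211.8 to 869.1 CPM in Trpm2-/- mice, and 1 of the 5 (Umod) passed the test and was lower. Markers of the connecting tubule and principal cell summed to 1407 to 1764 CPM in WT mice and to 782.2 to 1063 CPM in Trpm2-/- mice. This sum was mostly Aqp2, at 1124 CPM in WT and 554.8 CPM in Trpm2-/- mice. Of 6 markers tested in this list, 2 (Aqp2 and Aqp3) passed and were lower, while Scnn1b, Scnn1g, Hsd11b2 and Fxyd4 did not pass. Of 7 markers of injured tubule cells, 2 were higher in Trpm2-/- mice (Krt20 and Sox9) and 0 were lower. Over all genes tested, 4.74% were higher and 7.28% lower. The summed level of the 7 injured tubule markers was 16850, 18770 and 17710 CPM in WT mice and 26820, 18680 and 21380 CPM in Trpm2-/- mice. This sum was mostly Spp1, which did not pass the test (log2 fold change 0.23, adjusted p = 0.561 by edgeR). The sum was lowest in mouse 2 among Trpm2-/- mice, within the WT range, whereas Calcr was lowest in mouse 4. Sox9 was at 50.9, 36.4 and 28.3 CPM in Trpm2-/- mice 1, 2 and 4, the order of Calcr. Krt20 was at 1299, 1309 and 971.8 CPM in the same mice. Havcr1 and Lcn2 were also lowest in mouse 4, while Vcam1, Clu and Spp1 were lowest in mouse 2. The part of any cell type in the level of Calcr was not tested.

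The profile of Calcr over the 6 libraries was then compared with those of all other genes tested. The measure was the root mean square difference of log2 CPM values after subtracting each gene's mean over the libraries, so a smaller value is a closer profile, and predicted genes with Gm or Rik names were left out. The closest gene was Ptpn22, a tyrosine phosphatase of immune cells, at 0.635, followed by Ankrd34b at 0.707, Sprr2f, an envelope protein of stratified epithelia, at 0.715, Meltf, a transferrin-like protein, at 0.761 and Calcb, a calcitonin gene-related peptide, at 0.789. In all 5 genes, as in Calcr, Trpm2-/- mouse 4 was lower than Trpm2-/- mice 1 and 2. Ptpn22 was at 5.06, 5.85 and 2.82 CPM in WT mice and at 34.4, 36.2 and 13.4 CPM in Trpm2-/- mice. Sprr2f was at 24.3, 29.9 and 16.9 CPM in WT mice and at 152.5, 150.7 and 65.6 CPM in Trpm2-/- mice. Ankrd34b did not exceed 1.84 CPM in any library, so its profile rests on few reads. These genes were found by their likeness to Calcr over all 6 libraries. Neither their difference between genotypes nor their lower value in Trpm2-/- mouse 4 is therefore a separate result.

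**Figure D2:**
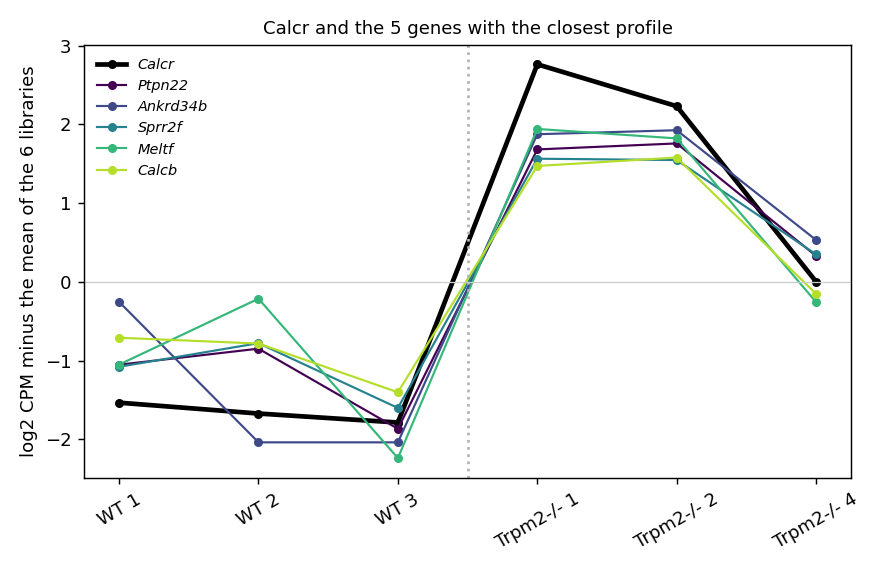
Log2 CPM of Calcr (black) and of the 5 genes with the closest profile in each library, each with its mean over the 6 libraries subtracted (y axis, log2 units). Calcr ranges from -1.79 in WT mouse 3 to 2.76 in Trpm2-/- mouse 1 and stands at 0.001 in Trpm2-/- mouse 4. The other 5 genes, chosen for their likeness to this profile, are also lower in Trpm2-/- mouse 4 than in Trpm2-/- mice 1 and 2.

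Pth1r encodes the receptor for parathyroid hormone and its related peptide, which in the proximal tubule lowers phosphate uptake and raises calcitriol production. It lies on chromosome 9 from 110722085 to 110747145 on the minus strand. Pth1r was at 403.7, 411.1 and 386.1 CPM in WT mice 1, 2 and 3 and at 146.6, 155.3 and 280.2 CPM in Trpm2-/- mice 1, 2 and 4. All Trpm2-/- values were below all WT values, and Trpm2-/- mouse 4 was the nearest to WT. The mean fell from 400.3 ± 12.9 CPM (SD, n = 3) to 194.0 ± 74.8 CPM (SD, n = 3), which is 2.06-fold lower (log2 fold change -1.04, SE 0.235, 95% interval -1.57 to -0.52, adjusted p = 0.0211 by edgeR). The adjusted p rose to 0.0733 without WT mouse 2, 0.0640 without WT mouse 3, 0.0637 without Trpm2-/- mouse 1 and 0.0502 without Trpm2-/- mouse 2. Without Trpm2-/- mouse 4 the log2 fold change was -1.40 (adjusted p = 0.00149 by edgeR), and the direction was the same in each of these fits. Exons of Myl3 on the other strand covered 3.25% of its exon bases.

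Markers of the proximal tubule, where much of the renal Pth1r is found, moved with Pth1r. Of 8 proximal tubule markers, 8 of 8 were lower in Trpm2-/- mice at an adjusted p under 0.05 (edgeR), against 7.28% of all genes tested. Their summed level was 1844, 1671 and 2205 CPM in WT mice and 500.3, 465.0 and 774.4 CPM in Trpm2-/- mice, with no overlap. Per unit of this sum, Pth1r was at 0.219, 0.246 and 0.175 in WT mice and at 0.293, 0.334 and 0.362 in Trpm2-/- mice. The ratio was therefore above WT in all 3 Trpm2-/- mice while the CPM value was below WT in all 3. The sum itself was lower in Trpm2-/- mice, so the ratio rises for any gene that fell less than the sum. A raised ratio was therefore not particular to Pth1r. Per unit of the same sum, Vdr averaged 0.141 in WT and 0.573 in Trpm2-/- mice, Cyp24a1 0.0632 and 0.388, and Cyp27b1 0.0173 and 0.0901. None of these overlapped between genotypes, but the sum used as divisor did not overlap either, and on CPM Vdr and Cyp27b1 did overlap. On CPM, 33.5% of all genes tested showed no overlap. The share for ratios to this sum was not computed. The ratios to this sum were chosen after the values were seen and were not tested.

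Casr, the calcium-sensing receptor of the thick ascending limb, lies on chromosome 16 from 36493696 to 36562141 and was at a low level. It was at 3.02, 3.47 and 4.05 CPM in WT mice and 2.45, 2.05 and 4.54 CPM in Trpm2-/- mice, from 30 to 73 reads in a library. Trpm2-/- mice 1 and 2 were below WT mice and Trpm2-/- mouse 4 was above them. The log2 fold change was -0.22 (SE 0.361, 95% interval -1.03 to 0.59, adjusted p = 0.743 by edgeR), an interval that includes both a 2-fold decrease and no change, and it was -0.01 without Trpm2-/- mouse 2.

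Vdr, the nuclear receptor for calcitriol, lies on chromosome 15 from 97854425 to 97910630. It was at 250.2, 300.6 and 234.9 CPM in WT mice and 396.7, 288.4 and 237.8 CPM in Trpm2-/- mice. Only Trpm2-/- mouse 1 was outside the WT range. The mean was 261.9 ± 34.4 CPM in WT and 307.6 ± 81.2 CPM in Trpm2-/- mice (SD, n = 3 each), with a log2 fold change of 0.23 (SE 0.197, 95% interval -0.21 to 0.67, adjusted p = 0.485 by edgeR) that was 0.005 without Trpm2-/- mouse 1. Accordingly, the 4 receptors gave 1 gene that was lower (Pth1r), 2 that did not pass the test (Casr and Vdr) and Calcr, which was not tested.

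**Figure D3:**
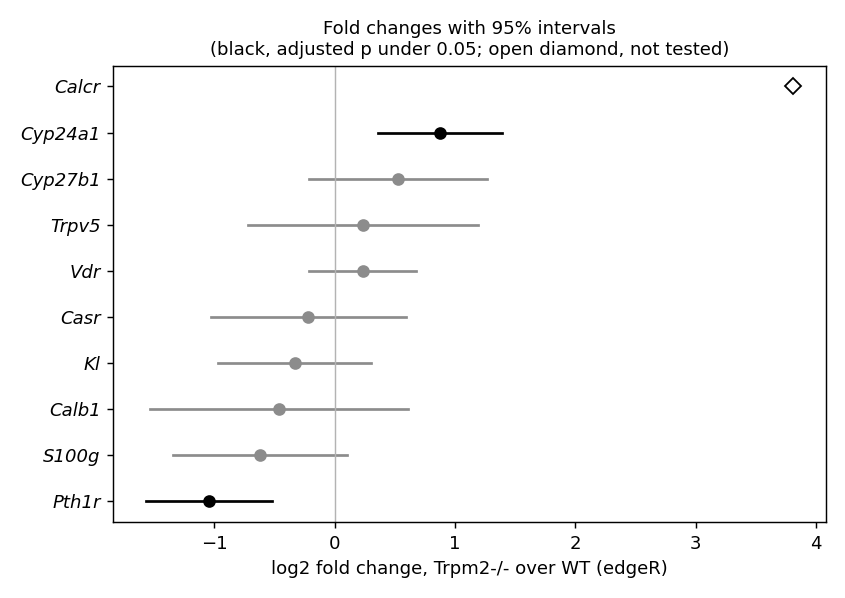
Log2 fold change of each gene in Trpm2-/- over WT kidneys from the edgeR fit (x axis), with lines for the 95% interval. Black points are Cyp24a1 (0.88) and Pth1r (-1.04), whose adjusted p is under 0.05, gray points are the 7 genes that did not pass, and the open diamond is Calcr (3.81), which is shown without an interval because it was chosen for its rise.

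The enzymes that make and break down calcitriol were both measured. Cyp27b1, the hydroxylase that makes calcitriol in the proximal tubule, lies on chromosome 10 from 127048250 to 127053006. It was at 18.8, 40.0 and 38.8 CPM in WT mice and at 58.8, 54.8 and 27.1 CPM in Trpm2-/- mice. Trpm2-/- mice 1 and 2 were above all WT mice and Trpm2-/- mouse 4 was within the WT range. The log2 fold change was 0.53 (SE 0.330, 95% interval -0.21 to 1.27, adjusted p = 0.334 by edgeR), and 0.24 without WT mouse 1.

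Cyp24a1, the hydroxylase that inactivates calcitriol and is a classical target of the vitamin D receptor, was higher in Trpm2-/- kidneys. It lies on chromosome 2 from 170482708 to 170497145 on the minus strand. It was at 165.2, 103.1 and 84.5 CPM in WT mice and at 235.4, 188.5 and 223.3 CPM in Trpm2-/- mice. All 3 Trpm2-/- values were above all 3 WT values, and here the spread was wider among WT mice (1.96-fold from lowest to highest) than among Trpm2-/- mice (1.25-fold). The mean rose 1.83-fold, from 117.6 ± 42.3 CPM to 215.7 ± 24.4 CPM (SD, n = 3 each), with a log2 fold change of 0.88 (SE 0.231, 95% interval 0.36 to 1.39, adjusted p = 0.0382 by edgeR). The call depended on the libraries included. The adjusted p was 0.148 without WT mouse 2, 0.147 without WT mouse 3, 0.104 without Trpm2-/- mouse 1 and 0.0737 without Trpm2-/- mouse 4, and it was 0.00735 without WT mouse 1 and 0.0429 without Trpm2-/- mouse 2. The log2 fold change stayed above 0 in each of these fits. Exons of Pfdn4 on the other strand covered 2.33% of its exon bases.

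Within a library, the balance of the enzymes did not separate the genotypes. The ratio of Cyp24a1 to Cyp27b1, from FPKM values (which divide by gene length), was 6.35, 1.86 and 1.57 in WT mice and 2.89, 2.49 and 5.96 in Trpm2-/- mice. WT mouse 1 had the highest ratio of all, since it had the highest Cyp24a1 and the lowest Cyp27b1 of the WT mice. The ratio of Cyp24a1 to Vdr was 1.05, 0.545 and 0.571 in WT mice and 0.942, 1.04 and 1.49 in Trpm2-/- mice, which also overlapped. These ratios were not tested.

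Kl encodes Klotho, which makes FGF receptors responsive to FGF23 and is most abundant in the distal convoluted tubule, and lies on chromosome 5 from 150952607 to 150993817. It was at 117.2, 120.5 and 111.6 CPM in WT mice and at 106.6, 47.7 and 123.2 CPM in Trpm2-/- mice. The WT mice were within 1.08-fold of each other, while Trpm2-/- mouse 2 alone was far below them and Trpm2-/- mouse 4 was above them. The mean was 116.4 ± 4.52 CPM in WT mice and 92.5 ± 39.7 CPM in Trpm2-/- mice (SD, n = 3 each), and the log2 fold change of -0.33 did not pass the test (SE 0.283, 95% interval -0.97 to 0.30, adjusted p = 0.488 by edgeR) and was -0.02 without Trpm2-/- mouse 2.

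Trpv5, the calcium channel through which the distal tubule takes calcium from the urine, lies on chromosome 6 from 41652173 to 41680769. It was at 14.9, 20.5 and 12.9 CPM in WT mice and at 17.5, 7.30 and 32.0 CPM in Trpm2-/- mice. The Trpm2-/- mice held both the lowest and the highest value of all 6. The log2 fold change was 0.23 (SE 0.426, 95% interval -0.72 to 1.19, adjusted p = 0.766 by edgeR) and turned to -0.36 without Trpm2-/- mouse 4, so these data give no direction for Trpv5.

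S100g encodes the small calbindin that carries calcium through epithelial cells, and lies on chromosome X from 162961992 to 162964599. It was at 658.6, 1295 and 842.7 CPM in WT mice and at 590.5, 365.3 and 861.5 CPM in Trpm2-/- mice, with a log2 fold change of -0.62 (SE 0.323, 95% interval -1.35 to 0.10, adjusted p = 0.244 by edgeR). Trpm2-/- mice 1 and 2 were below all WT mice and Trpm2-/- mouse 4 was within the WT range. Calb1, the large calbindin of the distal tubule on chromosome 4 from 15881264 to 15908064, was at 129.2, 242.9 and 99.6 CPM in WT mice and at 109.6, 41.6 and 190.6 CPM in Trpm2-/- mice. Its genotypes overlapped, and the log2 fold change was -0.46 (SE 0.479, 95% interval -1.54 to 0.61, adjusted p = 0.573 by edgeR). Without WT mouse 2, which was highest for both, the log2 fold change was -0.31 for S100g and -0.009 for Calb1. A 2-fold decrease of S100g or of Calb1 lies within these intervals, as does no difference.

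Klotho and the calcium carriers showed the same order among Trpm2-/- mice. Kl, Trpv5, S100g and Calb1 were each lowest in mouse 2, between in mouse 1 and highest in mouse 4. The summed markers of the distal convoluted tubule, mostly Slc12a3, varied in the same order, at 176.9, 207.0 and 186.3 CPM in WT mice and 132.3, 59.3 and 214.3 CPM in Trpm2-/- mice. Of these 5 markers, 4 were tested and 1 (Emx1) passed and was lower, beside 7.28% of all genes tested. Emx1 was lowest in mouse 1, at 7.47, 9.83 and 12.8 CPM in Trpm2-/- mice 1, 2 and 4. The summed markers of the connecting tubule and principal cell were also lowest in mouse 1, at 782.2, 993.3 and 1063 CPM in the same mice. The order was not particular to the distal tubule. Casr and the summed markers of the proximal tubule, intercalated cell, podocyte, fibroblast and mural cell, and neutrophil showed it too. Those of the thick ascending limb, endothelium, macrophage and injured tubule did not. Relative to the WT mean, the sum of the distal convoluted tubule markers in Trpm2-/- mouse 2 was 0.312, beside 0.392 for S100g, 0.265 for Calb1, 0.453 for Trpv5 and 0.410 for Kl. Per unit of the marker sum, S100g averaged 4.83 ± 1.29 in WT mice and 4.88 ± 1.13 in Trpm2-/- mice, and Calb1 averaged 0.813 ± 0.327 and 0.807 ± 0.0956 (SD, n = 3 each). Trpv5 differed from the calbindins in this respect. Its ratio to the markers was 0.0844, 0.0990 and 0.0695 in WT mice and 0.132, 0.123 and 0.149 in Trpm2-/- mice, with no overlap. Likewise, the FPKM ratio of Trpv5 to Calb1 was 0.173, 0.126 and 0.194 in WT mice and 0.239, 0.262 and 0.251 in Trpm2-/- mice, again with no overlap. These ratios were chosen after the values were seen and were not tested. On CPM the values of Trpv5 overlapped, while 33.5% of all genes tested showed no overlap. The share of genes whose ratios do not overlap was not computed, so no difference particular to Trpv5 is shown.

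**Figure D4:**
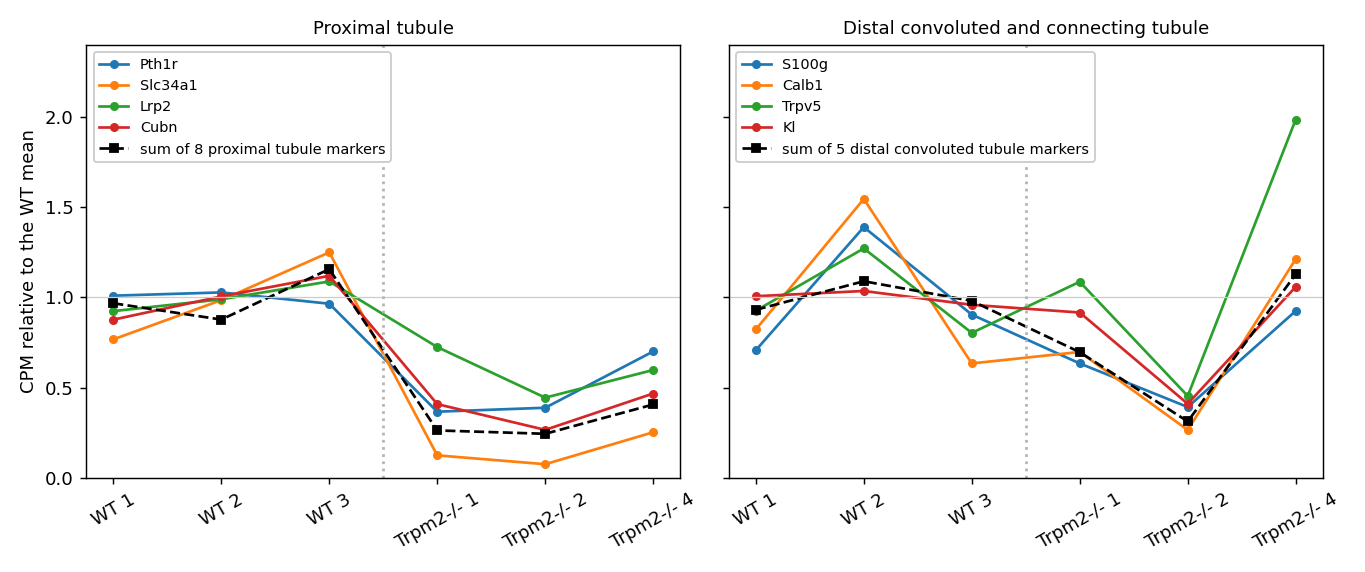
CPM of tubule genes in each library relative to the WT mean (y axis, where 1 is the WT mean), on the left for genes of the proximal tubule and on the right for genes of the distal convoluted and connecting tubule. The dashed black lines are the summed segment markers, which stand at 0.262, 0.244 and 0.406 of the WT mean in Trpm2-/- mice on the left, where Pth1r stands at 0.366, 0.388 and 0.700, and at 0.696, 0.312 and 1.13 on the right, where the calcium genes dip in Trpm2-/- mouse 2.

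Per gene length, S100g was by far the most abundant of the 10 genes, at 1698 ± 597 FPKM in WT mice and 1115 ± 464 FPKM in Trpm2-/- mice (SD, n = 3 each). In WT mice it was followed by Pth1r at 119.7 FPKM, Vdr at 40.6, Cyp24a1 at 28.9, Calb1 at 28.4, Cyp27b1 at 11.1, Kl at 10.9, Trpv5 at 4.35, Casr at 0.651 and Calcr at 0.377 FPKM. Among neighbours in this order, Vdr and Cyp24a1, Cyp24a1 and Calb1, and Cyp27b1 and Kl overlapped over the 3 mice, and the other 6 pairs did not. In Trpm2-/- mice the order was S100g, Pth1r at 58.6 FPKM, Cyp24a1 at 53.5, Vdr at 48.0, Calb1 at 20.8, Cyp27b1 at 16.0, Kl at 8.76, Calcr at 5.33, Trpv5 at 5.16 and Casr at 0.564 FPKM. Here S100g was apart from Pth1r, Vdr from Calb1 and Trpv5 from Casr, while the other 6 neighbouring pairs overlapped. Calcr stood last in WT mice and eighth in Trpm2-/- mice, where its level overlapped with those of Kl and Trpv5. Pth1r was apart from Vdr and Cyp24a1 in WT mice, but in Trpm2-/- mice its range of 44.1 to 85.1 FPKM overlapped with that of Cyp24a1. In all, 5 of the 10 genes held the same rank in both genotypes.

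**Figure D5:**
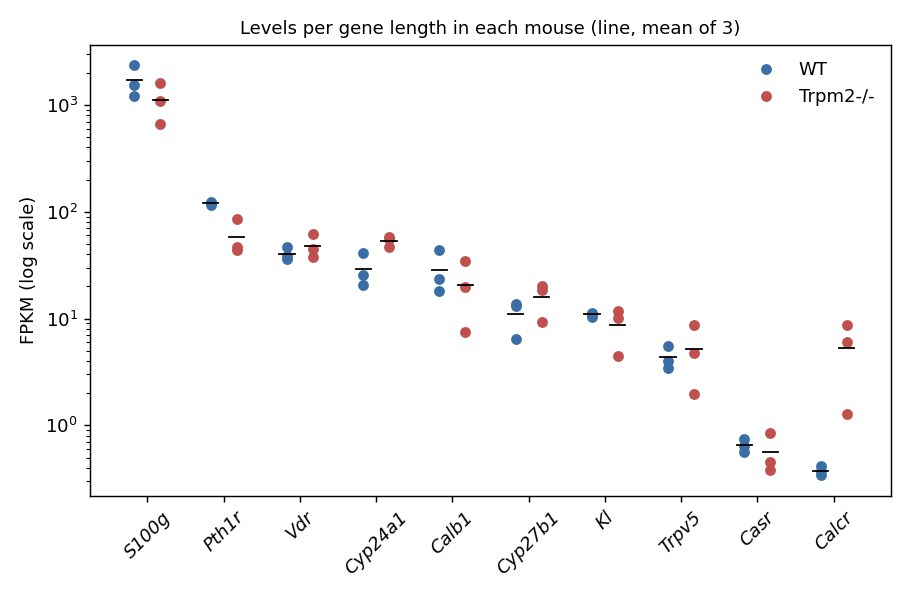
FPKM of the 10 genes in each mouse on a logarithmic axis, ordered by the WT mean, with WT in blue, Trpm2-/- in red and a line at the mean of 3 mice. Levels in WT mice run from 1698 FPKM for S100g to 0.377 FPKM for Calcr, and the Calcr values of Trpm2-/- mice overlap with those of Trpv5.

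Other genes of the axis were taken from 7 lists by role, also drawn up with earlier results of these data known. The lists held 65 genes in all, of which 53 were tested. Of these, 3 were higher and 8 lower in Trpm2-/- kidneys (20.8% against 12.0% of all genes tested), and 42 did not pass. Over all genes tested, 4.74% were higher and 7.28% lower, and the counts of each list below are to be read beside these shares. The median log2 fold change over the 53 genes was -0.09, beside 0.02 over all genes tested. Leaving out 1 mouse at a time gave 1 to 5 higher and 3 to 9 lower genes. The smallest numbers came without WT mouse 3 (1 and 3) and without WT mouse 2 (2 and 4), and 5 higher genes came without Trpm2-/- mouse 4. The share of all genes called was 3.86% without WT mouse 3, 4.24% without WT mouse 2 and 11.2% without Trpm2-/- mouse 4, so it was also smallest in the first pair of fits.

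Among ligands of the calcitonin family and partners of their receptors, 7 of 9 genes were tested, 2 were higher and 0 lower. Calcb, one of the 2, is also among the genes found by their likeness to Calcr, so its difference is no result apart from that choice. It was at 6.23, 5.91 and 3.80 CPM in WT mice and at 28.7, 30.9 and 9.22 CPM in Trpm2-/- mice, which did not overlap, with a fitted log2 fold change of 2.11, and its call was lost without WT mouse 3. Ramp2, which pairs with the calcitonin receptor or its relative Calcrl and changes the ligand they prefer, rose from 13.9 ± 2.23 to 27.6 ± 2.71 CPM (SD, n = 3 each; log2 fold change 0.99, SE 0.169, adjusted p = 0.00696 by edgeR). However, 29.5% of the 75-base windows of Ramp2 are shared with the overlapping gene Vps25, so its count is uncertain. Ramp1 was too low to be tested at 0.499 CPM in WT and 0.310 CPM in Trpm2-/- mice, and Ramp3 was at 14.7 and 9.41 CPM (log2 fold change -0.64, adjusted p = 0.259 by edgeR). Calcrl was at 4.38 CPM in WT and 5.23 CPM in Trpm2-/- mice and had its highest value, 9.71 CPM, in Trpm2-/- mouse 4, the library with the highest endothelial markers. Calca, the gene of calcitonin itself, was at 1.40 CPM in WT and 1.08 CPM in Trpm2-/- mice (log2 fold change -0.36, adjusted p = 0.573 by edgeR).

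In the list of parathyroid hormone and calcium sensing, 4 of 8 genes were tested and 1 was lower. Slc9a3r1, a scaffold that holds PTH1R and phosphate carriers at the brush border, fell from 393.3 to 277.5 CPM (log2 fold change -0.50, SE 0.129, adjusted p = 0.0346 by edgeR). It kept an adjusted p under 0.05 in 1 of 6 fits that left out a mouse, the one without Trpm2-/- mouse 2, and was at 0.0564 to 0.171 in the other 5. Pth and Gprc6a had 0 reads in every library.

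In the list of vitamin D supply and receptor partners, 11 of 12 genes were tested and 3 were lower. Cubn and Lrp2 encode cubilin and megalin, the endocytic receptors by which the proximal tubule takes up vitamin D with its binding protein. Cubn fell from 196.0 ± 23.8 to 74.5 ± 20.3 CPM (log2 fold change -1.39, SE 0.206, adjusted p = 0.00401 by edgeR). Lrp2 fell from 368.1 ± 30.5 to 216.6 ± 51.7 CPM (log2 fold change -0.76, SE 0.184, adjusted p = 0.0283 by edgeR). Cyp27a1, a mitochondrial hydroxylase that can act on vitamin D, fell from 78.8 to 40.8 CPM (log2 fold change -0.95, adjusted p = 0.0130 by edgeR). Cubn kept its call whichever mouse was left out. The adjusted p of Lrp2 was 0.0923 without WT mouse 2, 0.121 without WT mouse 3 and 0.0562 without Trpm2-/- mouse 4, and that of Cyp27a1 was 0.0619 without WT mouse 2 and 0.0595 without WT mouse 3. Per unit of the proximal tubule marker sum, Lrp2 was above WT in all 3 Trpm2-/- mice (0.195 ± 0.0202 in WT, 0.389 ± 0.129 in Trpm2-/- mice) and Cubn overlapped. This sum was itself lower in Trpm2-/- mice, so a gene that fell less than the sum has a raised ratio. Rxra, the partner of the vitamin D receptor, was at 147.5 CPM in WT and 104.3 CPM in Trpm2-/- mice (log2 fold change -0.50, adjusted p = 0.158 by edgeR). Cyp2r1, which makes the circulating form of vitamin D in the liver, was at 1.30 CPM in WT and 1.00 CPM in Trpm2-/- mice.

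Phosphate carriers and hormones, several of which parathyroid hormone and FGF23 act on, had 10 of 11 genes tested and 3 that were lower. Slc34a1, the main phosphate carrier of the proximal tubule, was at 775.4, 995.3 and 1263 CPM in WT mice and at 125.7, 76.1 and 255.1 CPM in Trpm2-/- mice, which did not overlap. It was 6.64-fold lower (log2 fold change -2.73, SE 0.399, adjusted p = 0.00391 by edgeR) and kept its call whichever mouse was left out. Unlike Pth1r, Slc34a1 was also lower per unit of the proximal tubule marker sum, at 0.420, 0.595 and 0.573 in WT mice and 0.251, 0.164 and 0.329 in Trpm2-/- mice. Exons of Pfn3 on the other strand covered 11.7% of its exon bases. Slc34a3, a related carrier, fell from 5.52 to 2.35 CPM (log2 fold change -1.23, adjusted p = 0.0316 by edgeR) and passed in 2 of 6 fits without a mouse, with adjusted p of 0.0606 to 0.164 without WT mouse 2, WT mouse 3, Trpm2-/- mouse 2 or Trpm2-/- mouse 4. Enpp1, which makes the mineralization inhibitor pyrophosphate, fell from 24.6 to 11.3 CPM (log2 fold change -1.12, adjusted p = 0.0128 by edgeR), and its adjusted p was 0.0517 without WT mouse 2 and 0.0662 without WT mouse 3.

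In the list of calcium entry, buffering and exit, 9 of 10 genes were tested and 1 was higher. Atp2b1, a calcium pump of the plasma membrane, was at 56.9, 55.2 and 50.9 CPM in WT mice and at 117.6, 78.9 and 73.2 CPM in Trpm2-/- mice, with no overlap (log2 fold change 0.73, SE 0.183, adjusted p = 0.0326 by edgeR). Without WT mouse 1, 2 or 3 the adjusted p was 0.0707, 0.116 and 0.144. Trpv6, the channel closest to Trpv5, was at 8.75 CPM in WT and 7.25 CPM in Trpm2-/- mice (log2 fold change -0.27, adjusted p = 0.597 by edgeR). Slc8a1, the sodium-calcium exchanger of the distal tubule, was at 3.14, 4.56 and 2.45 CPM in WT mice and at 8.08, 1.64 and 7.91 CPM in Trpm2-/- mice (log2 fold change 0.80, adjusted p = 0.356 by edgeR). Thus, mouse 2 had the lowest Trpm2-/- value of Slc8a1 too.

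Of 5 claudins tied to the passage of calcium between cells, 4 were tested and 1 was lower. Cldn10, of which one form makes the sodium pore of the thick ascending limb, fell from 78.0 ± 33.9 to 24.6 ± 7.06 CPM (SD, n = 3 each; log2 fold change -1.67, SE 0.315, adjusted p = 0.0104 by edgeR). It kept its call whichever mouse was left out. The count is per gene and does not tell its forms or their tubule segments apart. Of the FGF23 and Klotho list, 8 of 10 genes were tested and 0 passed. Fgfr1, the receptor that Klotho joins, was at 61.2 CPM in WT and 61.0 CPM in Trpm2-/- mice (log2 fold change -0.01, adjusted p = 0.986 by edgeR). Fgf23 had 1 read in all 6 libraries together.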

How the data were processed

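RNA-sequencing data from kidneys of 3 WT and 3 Trpm2-/- mice were analysed. Trizol extraction, the NEBNext Ultra II kit and an Illumina HiSeq instrument are given in the methods. The authors deposited raw read counts per gene, without normalization, and FPKM values, which divide them by gene length and library total. The submitters' processing notes name HISAT2, StringTie and mm9 without roles or versions, but the gene positions in the deposited tables are those of GRCm38. Of 54409 genes shared with GENCODE mouse release 21, 53499 had the same position, including all 10 genes studied. Strandedness is not given in the sources used here. The columns not used numbered 0, and 27 gene names had become calendar dates.

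The test used edgeR 4.0.16 (R 4.3.3). The filter filterByExpr left 15816 of 54532 genes, which were normalized by TMM. Genotypes were compared by the two-sided quasi-likelihood test on genotype alone (common dispersion 0.0445) with Benjamini-Hochberg adjustment over all genes tested, at a threshold of 0.05. The script was tested on simulated data. Total counts of 14053307 to 17150089 per library limit the precision of low genes such as Casr. Between replicates, the chi-square of counts per degree of freedom was 13.5 to 18.7 for WT and 32.1 to 36.7 for Trpm2-/- mice, far above sampling noise, so each library was counted as its own sample. The samples are different mice, and each p-value sets the genotype difference against the spread between mice of the same genotype.

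The 10 genes, the role lists and the marker lists were chosen with earlier results of these data known. Named genes are the 10, every list gene past the threshold, a set of list genes taken by role whatever their values, and the 5 genes closest to Calcr in profile. Calca, Pth, Gprc6a, Fgf23 and markers were named outside this rule, after their values were seen. Profiles used log2 CPM with a prior count of 2. Alternatives were DESeq2 size factors, upper quartile scaling, removal of mitochondrial genes, other filters, the Wald test of DESeq2 1.42.0, limma-voom and limma 3.58.1 on log2(FPKM + 1) and log2(FPKM + 0.1), omission of each mouse in turn, and a block for the replicate number. Promoter sequences were not analysed here for Cyp24a1 and Calb1.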

Additional observations from a re-analysis of the deposited data

How the results depend on the processing

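The number of the 9 genes chosen by role that passed was 2 in 9 of 18 alternatives. It was 5 with no filter on low counts, 1 by the rule of fold and unadjusted p, and 0 to 2 when single mice were left out. Without a filter, Cyp27b1, S100g and Calb1 joined Pth1r and Cyp24a1 (28884 genes tested), and the cause was not tested. In the role lists, the number of higher genes was 5 with no filter, 5 by the DESeq2 Wald test, 1 by the rule of fold and unadjusted p, and 1 to 5 without single mice. The number of lower genes was 15 with no filter, 14 by the DESeq2 Wald test and 3 to 9 without single mice. The share of all genes called was 12.0% in the reported fit, 10.2% with no filter, 16.1% by the DESeq2 Wald test and 3.86 to 12.6% without single mice. The number of genes with the same FPKM rank in both genotypes was 1 to 6 without single mice. The labels do not pair the mice, which share only replicate numbers 1 and 2, and deviations of same-numbered mice correlated at 0.064 and -0.012. With the replicate number as a block in these 4 libraries, 1 of the 9 genes (Pth1r) and 4 lower list genes passed (5.75% of all genes). The same 4 libraries without the block, an alternative chosen after seeing the data, also gave 1 and 4 (3.97% of all genes), so fewer libraries went with fewer calls in both fits. Trpv5 reversed to -0.603 with the block, -0.499 in these libraries without it and -0.359 without Trpm2-/- mouse 4 (log2), and without other single mice it reached 0.616. The fitted difference of Calcr ranged from 1.96 on the log2(FPKM + 1) scale, which understates low genes, to 4.29. The other genes kept their sign in the 17 fits made for each, but without a single mouse Calb1 came to -0.009, Kl to -0.021, Vdr to 0.005 and Casr to -0.01 (log2), so these directions are not settled either, and S100g came to -0.313 and Cyp27b1 to 0.243. Casr and, in WT mice, Calcr rest on few reads.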
